A study of Mus musculus with 7 samples.

Results

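Psca and 9 other genes of the LY6/uPAR family (Slurp1, Lynx1, Lypd2, Ly6d, Ly6k, Ly6e, Ly6a, Ly6c1 and Ly6h) were examined in mouse nucleus pulposus with and without the lactate exporter MCT4. Psca was chosen by its rise in MCT4 knockout tissue, so its values are given below as a description without a test. The other members were listed because they belong to the same family, mostly in the same stretch of chromosome 15. Of the 10 listed genes, 9 were matched by symbol among the 19505 named genes on the arrays, and Ly6a was not analysed here. Expression was measured on Affymetrix whole-transcript arrays in 7 mice, 1 array per animal: 4 wild-type animals aged 13 months (WT) and 3 animals aged 14 months with a global knockout of MCT4 (MCT4KO). Age and genotype therefore cannot be told apart. The animals descended from heterozygous breeding pairs on a C57Bl/6N background backcrossed for 10 generations and were littermates per the growth protocol. The ages given, 13 months in WT and 14 months in MCT4KO, do not match littermates of both genotypes. The sources also differ on strain, since the design text gives WT as C57Bl/6 and MCT4 KO as C57Bl/6N, and the strain field reads C57BL/6 for all. Lumbar and caudal discs of 1 animal were pooled into 1 sample, and the knockout affects every tissue of the animal. The sources used here do not give the animals' sex.

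LY6/uPAR proteins share a compact domain of finger-like loops held together by disulfide bonds, and most are tethered to the outer cell membrane by a GPI (glycosylphosphatidylinositol) lipid anchor while a few are secreted. Several of them bind nicotinic acetylcholine receptors and alter how these channels respond to acetylcholine, whereas others act in complement control, cell adhesion or immune cell maturation. PSCA, prostate stem cell antigen, is a GPI-anchored member known from the epithelia of the stomach, bladder and prostate. The nucleus pulposus is the gelatinous, avascular core of the intervertebral disc, whose notochord-derived cells live on glycolysis and export the lactate they make.

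The knockout was checked first, with values listed here and below in the order WT 1 to 4, then MCT4KO 1 to 3. Slc16a3, which encodes MCT4, had a log2 value of 13.55, 13.35, 13.61 and 13.40 in WT against 5.02, 4.98 and 4.47 in MCT4KO, below the median of the negative control features on each knockout array (limma adjusted p = 6.7e-09; exact two-sided permutation p = 0.0286, the smallest that 35 splits allow). Of 11 measured markers of nucleus pulposus and notochord, 10 read above the control median on all 7 arrays and Foxa2 on 6 of them, and the mean over the 11 ran from 13.37 to 13.64 in WT and from 13.63 to 13.90 in MCT4KO. Within that list, Col2a1 had the smallest p. It gave 8.29, 8.10, 7.58 and 8.30 in WT against 10.08, 9.22 and 8.85 in MCT4KO, without overlap, a change of 1.32 ± 0.286 (SE; limma adjusted p = 0.088). Over all genes, 115 of 19505 passed the limma test at an adjusted p under 0.05, which is 0.590%, with 92 lower in MCT4KO (0.472%) and 23 higher (0.118%). The median log2 change over all genes was 0.017. The median of the negative controls, used below as the background level of an array, ran from 5.91 to 6.08. In whole tissue, fewer cells of a type and less RNA per cell cannot be told apart.

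Psca was at background in every WT animal and above it in every MCT4KO animal. It read 4.45, 4.73, 4.64 and 5.10 in WT against 7.47, 10.00 and 11.21 in MCT4KO. The groups did not overlap, and the knockout animals themselves were far apart. Among the negative control features of its own array, Psca stood at percentile 19.8, 24.1, 22.1 and 30.8 in WT against percentile 76.7, 95.4 and 97.5 in MCT4KO. The log2 mean was 4.73 ± 0.274 (SD, n = 4) in WT and 9.56 ± 1.91 (SD, n = 3) in MCT4KO. The log2 change was 4.83 ± 0.684 (SE from limma, moderated by the spread of all genes and pooled over both groups). The SD within MCT4KO is the measure of its spread between animals. Because the WT reading carries no signal above background, the change is better read as a bound, and the mean MCT4KO value was at least 11.8-fold above the WT control level. That bound was 24.5-fold without MCT4KO 1, 10.2-fold without MCT4KO 2 and 6.68-fold without MCT4KO 3.

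The spread of Psca within the knockout group was itself large. Psca exceeded the control median of the array by 1.47 log2 units in MCT4KO 1, by 4.04 in MCT4KO 2 and by 5.21 in MCT4KO 3, which are 2.78-fold, 16.4-fold and 37.0-fold. The 3 knockout values spanned 3.74 log2 units, a range exceeded within MCT4KO by 24 of 19505 genes, while the 4 WT values spanned 0.654 at background. The animal with the lowest Psca among the knockouts had Slc16a3 at 5.02 and the animal with the highest had it at 4.47, both at background.

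**Figure D1:**
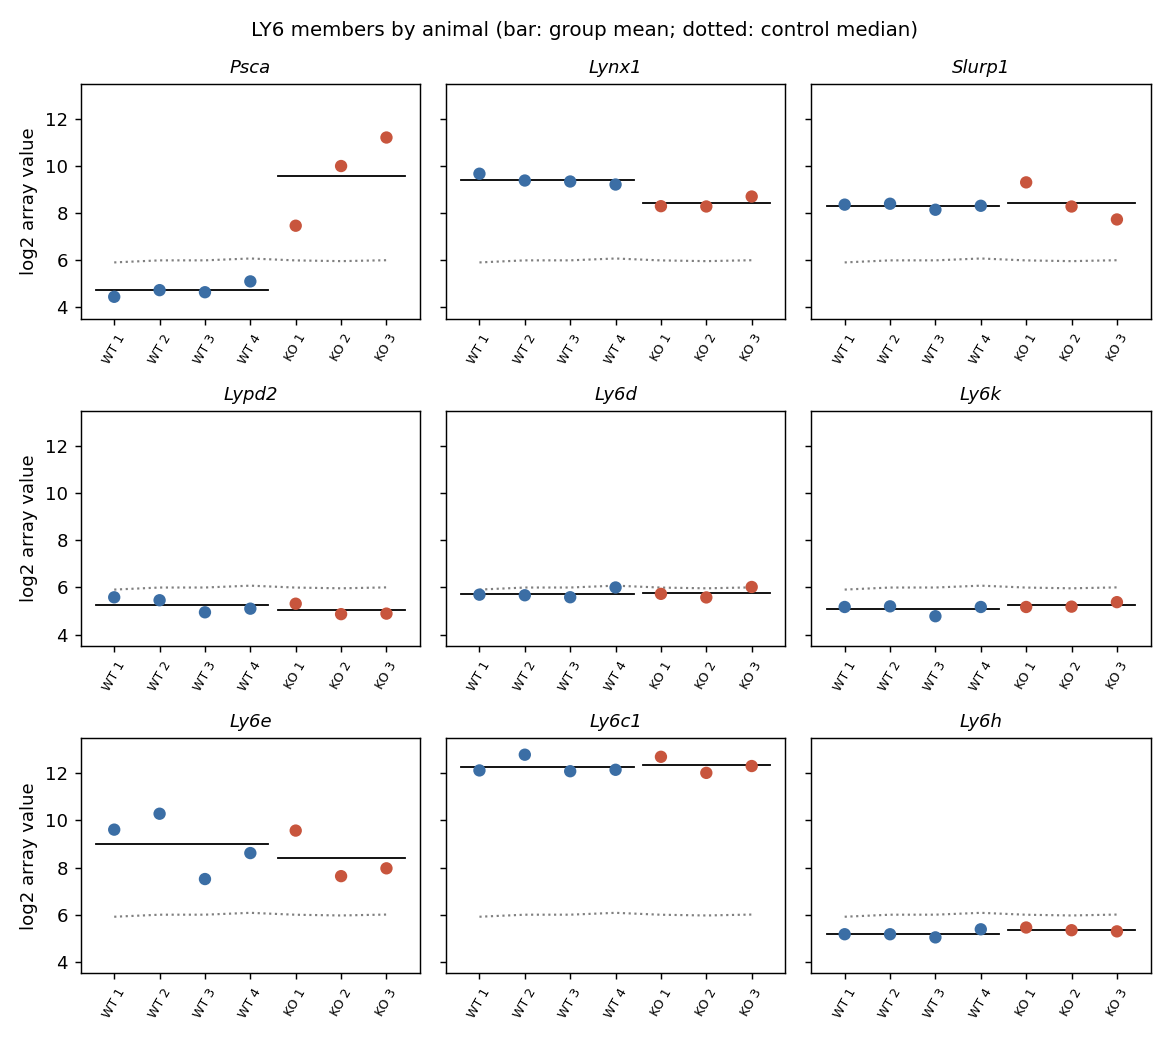
Log2 array value (vertical axis, the same range in every panel) of the 9 measured members in each animal (horizontal axis), with WT in blue and MCT4KO (KO) in red; bars are group means and the dotted line is the median of the negative controls on each array. Psca lies below the dotted line in all 4 WT animals and between 7.47 and 11.21 in the 3 MCT4KO animals, Lynx1 is lower in MCT4KO without overlap, and the groups overlap for each of the other 7 genes.

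Marker genes of gastric surface, urothelium and epidermis were mostly at background, and markers of prostate were not examined. Of 6 gastric surface markers, 5 read at or below the control median on all 7 arrays, and the exception, Gkn2, gave 6.33, 6.54, 6.06 and 6.73 in WT against 7.05, 6.30 and 6.27 in MCT4KO. Of 6 urothelial markers, 4 were at background on all arrays. The others were Upk1a, a uroplakin of the bladder surface, with a change of 0.43 (limma adjusted p = 0.44), and Krt20, a keratin of surface epithelia. Krt20 gave 11.16, 9.95, 9.36 and 10.07 in WT against 7.90, 8.89 and 7.38 in MCT4KO, a change of -2.08 ± 0.432 (SE; limma adjusted p = 0.075), and thus lay lower in the animals with Psca without passing the test. Of 9 epidermal markers, 8 were at background on all arrays and Krt10 read above it on 3. The mean over each marker list ran from 4.56 to 4.64 in WT and from 4.56 to 4.79 in MCT4KO for gastric markers, from 5.57 to 5.75 and from 5.41 to 5.62 for urothelial markers, and from 4.58 to 4.90 and from 4.91 to 4.99 for epidermal markers. No gene of these lists passed the test.

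The genes whose values ran most like those of Psca over the 7 arrays were Pcolce2, Ephx1, Pdlim4, Rgs9, Tmem45a, Ttc39c, Atp6ap1l and Zfp385a, out of 2608 compared. Pearson's r with Psca lay between 0.914 for Zfp385a and 0.975 for Pcolce2. WT and MCT4KO animals form separate clusters in Psca, so r holds the difference between groups as well as that between animals. After each group's mean was taken off, r was 0.919 for Pdlim4, 0.839 for Pcolce2, 0.785 for Tmem45a, 0.704 for Ephx1 and between 0.367 and 0.591 for the other 4, still over only 7 arrays. This within-group r rests mostly on the MCT4KO animals, whose Psca values spanned 3.74 log2 units against 0.654 in WT at background. Pdlim4, which encodes a PDZ and LIM domain protein of the actin cytoskeleton, gave 7.18, 7.40, 7.62 and 7.54 in WT against 7.67, 8.21 and 8.57 in MCT4KO. Pcolce2, an enhancer of procollagen processing, gave 14.15, 14.03, 14.09 and 14.22 in WT against 14.77, 14.89 and 15.18 in MCT4KO. Psca, Pdlim4, Pcolce2, Ephx1 and Tmem45a were all lowest in MCT4KO 1 and highest in MCT4KO 3 among the knockouts. Choosing genes by r favours such a shared order. Ephx1, microsomal epoxide hydrolase, gave 14.06, 13.87, 14.11 and 13.90 in WT against 14.55, 14.82 and 14.91 in MCT4KO. No test is given for these genes, since their likeness to Psca selected them.

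Among the 8 members tested, Lynx1 alone passed the test, and it was lower in MCT4KO. LYNX1 is a GPI-anchored protein best known from neurons, where it binds nicotinic acetylcholine receptors and dampens their activity. It read 9.68, 9.39, 9.35 and 9.22 in WT against 8.30, 8.28 and 8.71 in MCT4KO. Every WT value exceeded every MCT4KO value. The log2 mean was 9.41 ± 0.194 (SD, n = 4) in WT against 8.43 ± 0.241 (SD, n = 3) in MCT4KO, for a change of -0.98 ± 0.164 (SE; limma adjusted p = 0.041), and WT was 1.97-fold higher. Without any single animal the change stayed between -1.11 and -0.89 but the limma adjusted p rose to between 0.057 and 0.136, so the call was lost in each of these 7 fits. It was also lost under quantile normalization (change -0.87, limma adjusted p = 0.057). With Psca set aside, the members thus held 1 call in 8, against 0.590% of all genes. At an unadjusted limma p under 0.05 they likewise held 1, against 12.7% of all genes, and 1 had groups that did not overlap, against 12.0%. A share of 1 in 8 is near these last 2 backgrounds.

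Slurp1 and Slurp2 encode secreted members that act on nicotinic receptors of keratinocytes. Slurp1 gave 8.36, 8.40, 8.15 and 8.31 in WT against 9.31, 8.28 and 7.73 in MCT4KO. The knockout animals lay on both sides of WT, with a range of 1.57 against 0.255 in WT, and the change of 0.14 ± 0.304 (SE; limma adjusted p = 0.885) did not pass the test, with a 95% interval from -0.55 to 0.82. The knockout animal with the highest Slurp1 had the lowest Psca, and the one with the lowest Slurp1 had the highest Psca. Slurp2, which lies between Lypd2 and Lynx1 on the chromosome, gave 6.35, 6.49, 6.96 and 6.43 in WT against 6.29, 6.41 and 6.31 in MCT4KO, close above background (change -0.22, limma adjusted p = 0.609). A readthrough transcript joining Slurp2 and Lynx1 is known in human, and whether probes of both features share exons was not examined here.

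Ly6h encodes a brain-enriched member that reduces the surface level of nicotinic receptors, and it read at background in both groups, from 5.03 to 5.38 in WT and from 5.29 to 5.45 in MCT4KO. Lypd2, a member of little-known function beside Slurp1, ran from 4.94 to 5.58 in WT and from 4.87 to 5.31 in MCT4KO, and Ly6k, a testis member needed for sperm function, from 4.78 to 5.20 and from 5.17 to 5.38. All 3 genes were below the control median on all 7 arrays, so no fold is given. Ly6d, a marker of early B lineage cells that is also made by keratinocytes, gave 5.69, 5.67, 5.58 and 6.00 in WT against 5.73, 5.58 and 6.02 in MCT4KO, above the control median on 1 array, MCT4KO 3. None of these 4 passed the test, with limma adjusted p-values from 0.609 to 0.942.

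Ly6e and Ly6c1 were the members seen on immune cells that lay above background on all arrays. LY6E is an interferon-inducible GPI-anchored protein. It read 9.61, 10.28, 7.51 and 8.61 in WT against 9.57, 7.63 and 7.97 in MCT4KO. The groups overlapped and each spread widely, by 2.77 log2 units in WT and 1.93 in MCT4KO, so that the change of -0.61 ± 0.638 (SE; limma adjusted p = 0.718) lay within the spread between animals. Without 1 animal the change ran from -1.20 (without MCT4KO 1) to -0.19 (without WT 2), and it was -0.41 without WT 1, -1.11 without WT 3, -0.24 without MCT4KO 2 and -0.40 without MCT4KO 3. Ly6c1 encodes a form of Ly6C, a surface antigen of monocytes, memory T cells and some endothelia. It gave 12.12, 12.79, 12.09 and 12.15 in WT against 12.70, 12.02 and 12.31 in MCT4KO, a change of 0.06 ± 0.219 (SE; limma adjusted p = 0.938; 95% interval -0.43 to 0.54). WT 2 and MCT4KO 1 were the high animals in each group. Its near-identical neighbour Ly6c2 gave 8.31, 9.02, 7.96 and 7.99 in WT against 8.24, 7.99 and 8.38 in MCT4KO, and probes may not separate the genes fully.

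Of the 9 measured members, 1 matched the RefSeq table of start-site windows, Ly6c1, and its window is shown as the start region of a member read above background in every animal of both groups. The first of its 2 windows covers chr15:75048788-75049087 on the minus strand of GRCm38.p6, mostly upstream of the annotated start, and runs 5′ to 3′ in the direction of transcription with motif matches in capitals.
Ly6c1: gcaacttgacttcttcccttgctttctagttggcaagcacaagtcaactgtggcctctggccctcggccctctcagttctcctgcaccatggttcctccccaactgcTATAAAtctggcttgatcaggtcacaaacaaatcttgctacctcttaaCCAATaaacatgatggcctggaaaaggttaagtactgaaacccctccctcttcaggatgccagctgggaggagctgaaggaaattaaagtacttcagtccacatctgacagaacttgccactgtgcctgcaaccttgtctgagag
A set of 5 short motifs was searched on both strands in this window and in the 32851 RefSeq windows of 300 bases. The hypoxia response core, spelled ACGTG, was held by 19.6% of all windows. The box bound by TATA-binding protein, spelled TATAAA, was held by 13.6%. The core of the interferon response element, spelled GAAANNGAA, was held by 8.56%. The CCAAT box was searched as its name is spelled and was held by 37.4%. The GC box recognised by SP family factors, spelled GGGCGG, was held by 35.7%. The Ly6c1 window held a TATA box with its first base at -143 and a CCAAT box at -95 relative to the start. No match printed here overlaps another, and a match describes the letters of the window, not a site in use.

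Among WT animals, markers of blood cells were highest where Ly6e was highest. The mean over 10 neutrophil and monocyte markers was 7.80, 9.86, 6.12 and 6.37 in WT against 5.90, 5.15 and 5.15 in MCT4KO. WT 1 and WT 2, the WT animals with the highest marker means, were also the WT animals with the highest Ly6e. S100a8, a calcium-binding protein abundant in neutrophils, gave 10.41, 13.04, 7.71 and 7.86 in WT and lay at background, at least 13.6-fold lower, in MCT4KO (limma adjusted p = 0.123). That bound was 6.38-fold without WT 2, 21.8-fold without WT 3 and 21.1-fold without WT 4. Ngp, a neutrophil granule protein, gave 10.33, 13.51, 6.73 and 7.09 in WT and lay at background, at least 10.8-fold lower, in MCT4KO (limma adjusted p = 0.219), a bound of 4.19-fold without WT 2, 20.02-fold without WT 3 and 18.4-fold without WT 4. All 10 markers had a change below 0, against 9174 of 19505 genes, 5 of them at an unadjusted limma p under 0.05, against 12.7% of all genes in either direction (1346 of 19505 lower), and none passed the adjusted test. Without WT 1 and WT 2, an alternative chosen after seeing the data, the change of Ly6e was 0.33 in place of -0.61, that of Lynx1 was -0.85 (limma adjusted p = 0.207) and that of Psca was 4.69. MCT4KO 1 had the highest Ly6e of the knockouts, 9.57, and also their highest marker mean, 5.90. Across the groups the order differed, since that mean lay below every WT mean while its Ly6e exceeded that of WT 3 and WT 4. The part of these markers in the values of Ly6e was not tested.

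Genes induced by interferon, the class to which Ly6e belongs, were compared as a list that left Ly6e out. Of 32 measured, none passed the test, 12 were lower and 0 higher at an unadjusted limma p under 0.05, against 12.7% of all genes in either direction (1346 of 19505 lower), and the median change was -0.36 against 0.017 over all genes. Rsad2, which encodes the antiviral enzyme viperin, gave 6.29, 6.85, 6.53 and 6.56 in WT against 4.91, 5.29 and 6.12 in MCT4KO, a change of -1.12 ± 0.262 (SE; limma adjusted p = 0.114). Rtp4, a chaperone-like inhibitor of viral replication, had a change of -0.84 (limma adjusted p = 0.125), and Ifit1, which binds foreign RNA caps, of -1.05 (limma adjusted p = 0.128). Rsad2 and Ifit1 each read above the control median on 5 of 7 arrays and below it in MCT4KO 1 and MCT4KO 2, so their changes lie near background. The list mean was 7.54, 7.62, 7.49 and 7.62 in WT against 7.03, 7.34 and 7.32 in MCT4KO. It was lowest in MCT4KO 1, the knockout animal with the highest Ly6e. Averaging over 32 genes narrows a span, so the span of this mean in WT is not compared with that of Ly6e. The part of interferon in the values of Ly6e was not tested.

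**Figure D2:**
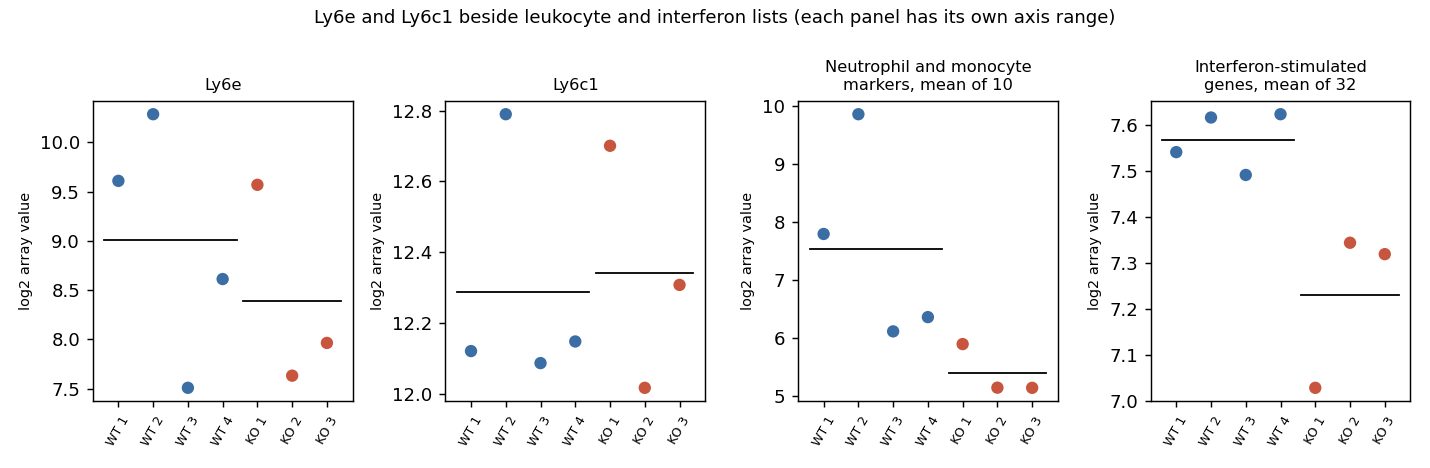
Log2 array value by animal of Ly6e, Ly6c1, the mean of 10 neutrophil and monocyte markers and the mean of 32 interferon-stimulated genes, with WT in blue, MCT4KO (KO) in red and bars for group means; each panel has its own vertical range. Ly6e and the neutrophil and monocyte mean are both highest in WT 2, whereas MCT4KO 1 has Ly6e at 9.57 with the lowest interferon mean, 7.03.

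Genes running most like Ly6e were named by the same rule as for Psca. They were Hp, Gda, Ivns1abp, Eva1b, Myo7a, Parm1, Clec2m and Nxpe2, with Pearson's r over 7 arrays from 0.858 to 0.939 and r after removal of group means from 0.848 to 0.980. Hp, haptoglobin, a plasma protein that binds free haemoglobin and is also stored in neutrophils, gave 6.31, 7.69, 5.24 and 6.48 in WT against 6.86, 4.92 and 5.47 in MCT4KO, highest in WT 2 and MCT4KO 1 like Ly6e. Eva1b, which encodes a membrane protein, gave 7.44, 7.74, 6.82 and 7.32 in WT against 7.83, 7.21 and 7.23 in MCT4KO. The groups of all 8 overlapped.

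Beyond the listed members, 43 of 52 further mouse LY6/uPAR genes were measured. On 29 of them no array read above its control median, and 9 read above it on all 7 arrays. Cd59a alone passed the test and was higher in MCT4KO, 1 gene of 43 against 0.118% of all genes in that direction, and none was lower. At an unadjusted limma p under 0.05, 5 were higher and 2 lower, and the groups of 5 did not overlap, against 12.7% and 12.0% of all genes. The median change was 0.097, with 29 genes above 0 and 14 below, beside 0.017 over all genes with 10331 above and 9174 below.

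**Figure D3:**
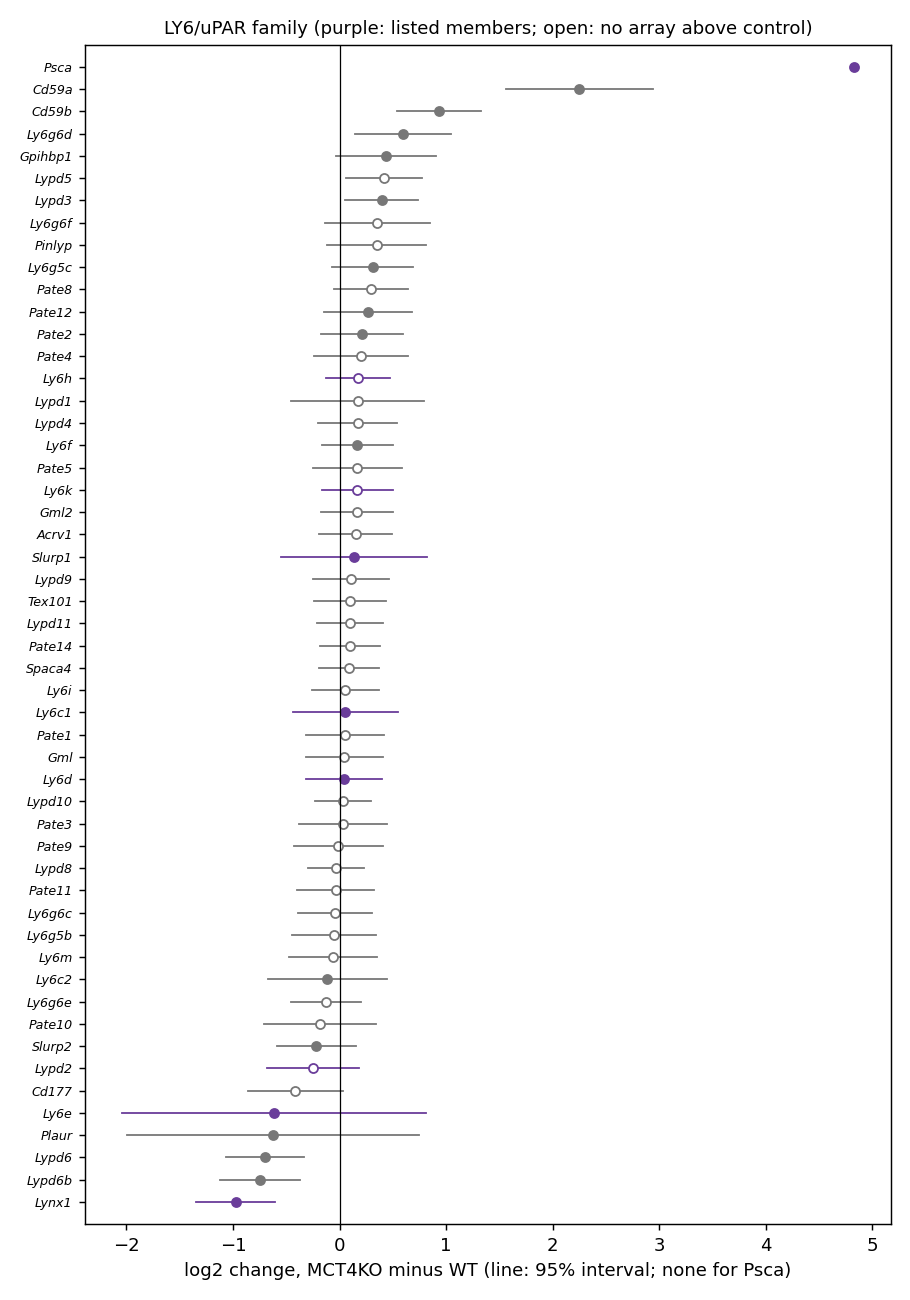
Log2 change, MCT4KO minus WT (horizontal axis), of the 9 measured members (purple) and 43 further LY6/uPAR genes (grey), with 95% intervals from limma as lines except for Psca; open points are genes with no array above its control median. Psca at 4.83, picked for its rise, and Cd59a at 2.25 stand at the top, Lynx1 at -0.98 stands at the bottom, and most other points lie near 0.

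CD59 blocks the last step of complement attack at the cell membrane, and mouse carries it as a pair of neighbouring genes on chromosome 2. Cd59a gave 11.16, 9.92, 10.02 and 9.64 in WT against 12.53, 12.37 and 12.40 in MCT4KO. The knockout animals lay close together and above every WT animal, with WT 1 the highest of WT. The change was 2.25 ± 0.308 (SE; limma adjusted p = 0.019). The call held without WT 1 (change 2.57, limma adjusted p = 0.00056) and was lost without any other single animal, with changes from 2.07 to 2.28 and limma adjusted p-values from 0.056 to 0.078. Cd59b gave 8.71, 8.41, 8.39 and 7.99 in WT against 9.28, 9.46 and 9.19 in MCT4KO, again without overlap, and its change of 0.93 ± 0.177 (SE) missed the threshold (limma adjusted p = 0.055). It passed under quantile normalization (limma adjusted p = 0.045) and with dim genes left out (limma adjusted p = 0.042). The genes are closely related copies, so that probes of one may read the other.

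Their start-site windows are shown because this pair lay higher together in MCT4KO. Cd59a has its window at chr2:104095551-104095850 and Cd59b at chr2:104070816-104071115, both on the plus strand of GRCm38.p6 per RefSeq, 5′ to 3′ with motif matches in capitals.
Cd59a: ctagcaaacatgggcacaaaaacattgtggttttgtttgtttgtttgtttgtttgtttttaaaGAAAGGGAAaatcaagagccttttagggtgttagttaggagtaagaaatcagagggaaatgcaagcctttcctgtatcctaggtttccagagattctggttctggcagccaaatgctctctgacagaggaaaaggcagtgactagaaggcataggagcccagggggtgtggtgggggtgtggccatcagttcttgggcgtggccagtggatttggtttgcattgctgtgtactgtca
Cd59b: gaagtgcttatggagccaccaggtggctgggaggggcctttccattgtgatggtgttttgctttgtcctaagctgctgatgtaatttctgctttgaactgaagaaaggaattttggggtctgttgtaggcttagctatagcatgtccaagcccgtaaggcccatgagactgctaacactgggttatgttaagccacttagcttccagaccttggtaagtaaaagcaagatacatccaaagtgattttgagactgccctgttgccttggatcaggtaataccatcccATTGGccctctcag
The Cd59a window held 1 interferon response core at -187, a motif found in 8.56% of all windows, and none of the other 4 motifs. The Cd59b window held 1 CCAAT box at 36, on the reverse strand, and none of the others. The 2 windows thus shared none of the motifs searched.

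Lypd6 and Lypd6b encode GPI-anchored proteins that modulate nicotinic receptors, and Lypd6 also acts in Wnt signalling. Both were expressed well above background, and both lay lower in MCT4KO without passing the test. Lypd6 gave 13.34, 13.54, 13.02 and 13.30 in WT against 12.38, 12.80 and 12.63 in MCT4KO, a change of -0.70 ± 0.164 (SE; limma adjusted p = 0.114). Lypd6b gave 12.79, 12.72, 12.59 and 12.85 in WT against 11.65, 12.00 and 12.31 in MCT4KO, a change of -0.75 ± 0.169 (SE; limma adjusted p = 0.101). For both genes every WT value exceeded every MCT4KO value. The RefSeq window of Lypd6, chr2:50066179-50066478 on the plus strand, is shown as that of a family member well above background whose start region is richer in G and C than those above.
Lypd6: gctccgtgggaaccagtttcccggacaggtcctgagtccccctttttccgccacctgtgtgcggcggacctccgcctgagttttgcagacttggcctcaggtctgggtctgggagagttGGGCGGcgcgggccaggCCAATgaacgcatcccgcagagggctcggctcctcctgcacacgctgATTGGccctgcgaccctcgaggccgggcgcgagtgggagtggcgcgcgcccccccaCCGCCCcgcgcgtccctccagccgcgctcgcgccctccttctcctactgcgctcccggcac
It held CCAAT boxes at -114 and -67 and GC boxes at -131 and -11, and none of the other 3 motifs. G and C made up 71% of its bases, against 49% in the window of Ly6c1 and 45.7% in that of Cd59a.

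The remaining family genes on all arrays included Plaur, the urokinase receptor, which gave 7.27, 9.84, 9.92 and 10.14 in WT against 8.14, 9.05 and 8.82 in MCT4KO. WT 1 was far below the other WT animals in Plaur, and the change of -0.63 ± 0.611 (SE; limma adjusted p = 0.699) did not pass. Without WT 1 it was -1.30 (limma adjusted p = 0.078), and without any other single animal it lay between -0.82 and -0.34 (limma adjusted p from 0.666 to 0.908). Ly6g6d, a member encoded in the major histocompatibility region, gave 9.22, 8.80, 8.46 and 8.74 in WT against 9.70, 9.35 and 9.15 in MCT4KO (change 0.59, limma adjusted p = 0.275). Lypd5 had groups that did not overlap, 3.23 to 3.79 in WT and 3.90 to 4.06 in MCT4KO, but at background throughout.

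The receptors on which LYNX1, LYPD6 and the SLURP proteins act were measured too. Of 16 nicotinic acetylcholine receptor subunit genes, 12 read at or below the control median on all 7 arrays, 2 read above it on all 7, and none passed the test. At an unadjusted limma p under 0.05, 1 was higher and 1 lower, the groups of 3 did not overlap, against 12.0% of all genes, and the median change was 0.015. Chrna10, a subunit known from cochlear hair cells, gave 9.76, 10.29, 10.15 and 9.98 in WT against 8.40, 9.41 and 9.03 in MCT4KO, a change of -1.10 ± 0.232 (SE; limma adjusted p = 0.080). Every WT value exceeded every MCT4KO value. Chrna9, whose product usually pairs with that of Chrna10, was above background on 1 array and ran from 5.21 to 5.48 in WT and from 5.36 to 6.09 in MCT4KO. Chrnb1, a muscle subunit, was the other gene above background on all arrays, from 6.85 to 7.03 in WT and from 6.76 to 7.65 in MCT4KO. Chrna6 ran from 5.47 to 5.64 in WT and from 5.75 to 6.20 in MCT4KO (change 0.41, limma adjusted p = 0.290), above the control median on 1 array, MCT4KO 1. Chrna4 was at background throughout. Of 6 neuron and glia markers measured, 3 were at background on all arrays, 5 had a change above 0 and 1 below, and the median change was 0.030. The gene below was Mbp, a myelin protein gene above background on 2 arrays, with a change of -0.74 (limma adjusted p = 0.255).

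**Figure D4:**
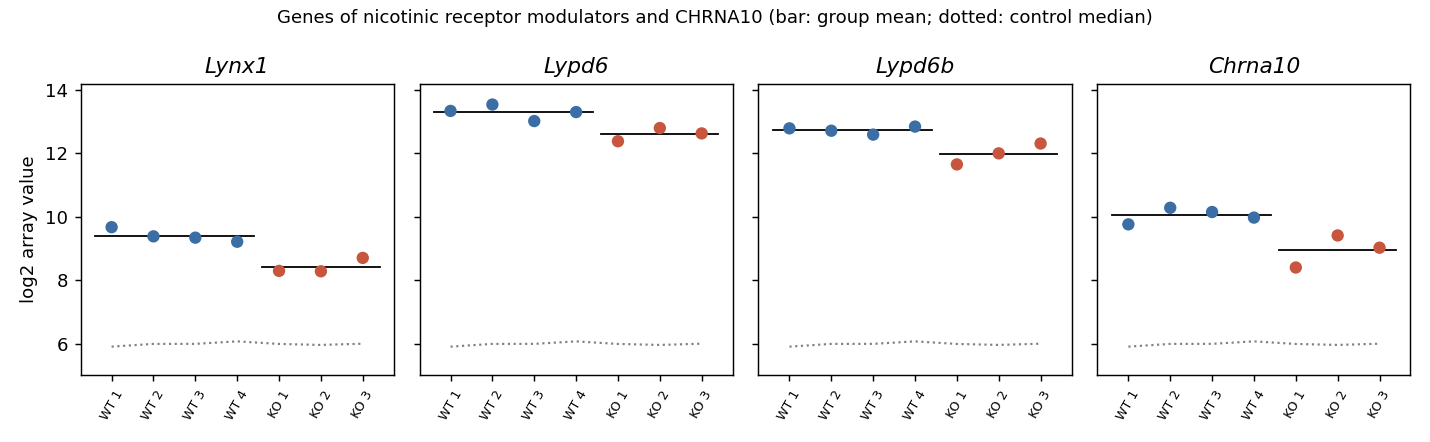
Log2 array value by animal of Lynx1, Lypd6, Lypd6b and the receptor subunit gene Chrna10, with WT in blue, MCT4KO (KO) in red, bars for group means and the negative control median of each array dotted. In each of the 4 panels all WT values lie above all MCT4KO values, and Lynx1 is the panel whose gene passed the test.

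Assembly of the GPI anchor, which PSCA, LYNX1 and most of the family need to reach the membrane, was followed over 28 measured genes. None passed the test and 0 had an unadjusted limma p under 0.05, against 12.7% of all genes, the groups of 2 did not overlap, against 12.0%, and 20 had a change below 0 and 8 above, with a median of -0.11 against 0.017 over all genes. Pign, which adds a phosphoethanolamine to the anchor, gave 10.66, 10.38, 10.78 and 10.28 in WT against 10.26, 10.26 and 10.06 in MCT4KO (change -0.33, limma adjusted p = 0.426). Pigc, part of the enzyme that starts the anchor, had a change of 0.43 (limma adjusted p = 0.455), and Pigg, which also adds phosphoethanolamine, of -0.40 (limma adjusted p = 0.462).

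Along chromosome 15, 1 of the measured neighbours of Psca passed the test. Of 71 named genes starting within 1 Mb of the start of Psca in RefSeq, 30 were measured, and for 14 of these no array read above its control median. Lynx1 was the 1 gene called, against 0.590% of all genes, and at an unadjusted limma p under 0.05 there were 2 higher and 1 lower of the 30, against 12.7% of all genes. The groups of 2 of the 30 did not overlap, against 12.0% of all genes. Over the 10 measured genes nearest to Psca in order, 5 on each side, changes ran from -0.98 to 0.64. The measured gene before Psca, 4933427E11Rik, was at background, from 4.08 to 4.88 in WT and from 4.35 to 5.37 in MCT4KO. The gene after it, Them6, gave 8.60, 8.71, 8.29 and 7.92 in WT against 8.42, 8.44 and 8.96 in MCT4KO, overlapping (change 0.22 ± 0.217, SE; limma adjusted p = 0.697). Jrk, the second measured gene before Psca, gave 6.67, 6.19, 6.50 and 6.04 in WT against 6.54, 6.76 and 7.66 in MCT4KO (change 0.64, limma adjusted p = 0.363), highest in the animal with the highest Psca. 9030619P08Rik gave 5.35, 5.35, 5.08 and 5.29 in WT against 5.73, 5.56 and 6.21 in MCT4KO (change 0.57, limma adjusted p = 0.227), above the control median on 1 array, MCT4KO 3. Jrk and 9030619P08Rik were named after their values were seen. Gpihbp1, a family member that carries lipoprotein lipase on capillaries, lies in the same stretch and read above background on 1 array, MCT4KO 2, at 6.11.

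**Figure D5:**
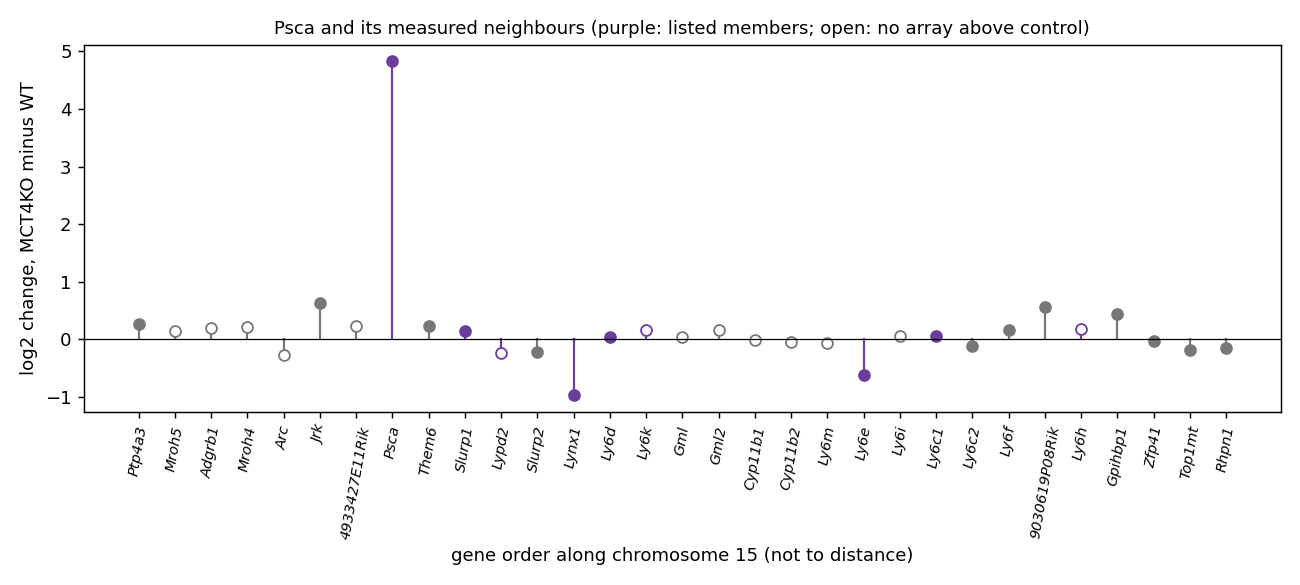
Log2 change, MCT4KO minus WT (vertical axis), of Psca and its 30 measured neighbours in their order along chromosome 15 (horizontal axis, not to distance); purple marks listed members and open points are genes with no array above its control median. Psca, picked for its rise in this contrast and at background in WT, stands at 4.83. Its neighbours lie between -0.98 (Lynx1) and 0.64 (Jrk).

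Markers of other cells that dissection could carry along were at background in part, beside the neutrophil and monocyte markers above, of which 1 of 10 was at background on all arrays. Of 9 endothelial markers 7 were at background on all arrays, as were 4 of 7 macrophage markers, 4 of 7 T and B cell markers, 2 of 8 muscle markers and 4 of 6 osteoblast markers, and none of these genes passed the test. Among muscle markers Ckm had the smallest p. It ran from 6.76 to 6.97 in WT and from 7.10 to 7.50 in MCT4KO, without overlap (change 0.39, limma adjusted p = 0.306). Of the 8 muscle markers, 4 had a change above 0 and 4 below. Ibsp, a bone matrix protein gene of the osteoblast list, read 10.95, 9.89, 9.75 and 10.74 in WT against 8.11, 9.65 and 7.43 in MCT4KO, without overlap, a change of -1.94 ± 0.485 (SE; limma adjusted p = 0.140), and it passed without MCT4KO 2 (change -2.56, limma adjusted p = 0.042). Of the 6 osteoblast markers, 2 were lower at an unadjusted limma p under 0.05, against 12.7% of all genes in either direction. They were Ibsp and Alpl, the latter at background on all arrays. Col1a1, the other marker above background on all arrays, had a change of 0.31 (limma adjusted p = 0.641). Over the list, 4 changes were below 0 and 2 above. The part of such cells in the values of Psca, Lynx1 and Cd59a was not tested. The endothelial mean, given because Ly6c1 marks some endothelia, ran from 4.79 to 5.01 in WT and from 4.98 to 5.19 in MCT4KO. Emcn, Pecam1 and Cdh5 were among the 7 at background on all arrays. Vwf read above the control median on all 7 arrays, from 6.25 to 6.48 in WT and from 6.43 to 6.66 in MCT4KO, and Esam on 4. The part of endothelium in the values of Ly6c1 was not tested.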

How the data were processed

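RNA of nucleus pulposus from 4 WT and 3 MCT4KO mice was read on Affymetrix arrays. The authors deposited 1 log2 value per feature and array, and the submitters' processing notes name Affymetrix Expression Console 1.4.1. That the scale is log2 is read from its range, while steps before deposit (background, normalization, summary over probes) are not stated in the labels, so folds are on the deposited scale. Precision is limited by the number of animals, with a median standard error of 0.167 for a log2 change.

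Of 28846 features, 5222 were negative controls, whose median on an array was taken as its background. A gene is at background in a group when each array of the group reads at or below that median. Folds against it are lower bounds, computed from the control medians. The 19572 features with 1 symbol gave 19505 genes, with the feature of highest mean kept for the 55 genes with several. Names, order along the chromosome and start-site windows came from RefSeq tables of GRCm38.p6. Since the arrays' build is not stated in the labels, gene coordinates are left out.

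All genes were fitted with lmFit and eBayes in limma 3.58.1 (R 4.3.3), MCT4KO against WT, with no covariate, 5 residual and 4.66 prior degrees of freedom, two-sided p-values and Benjamini-Hochberg adjustment over all 19505 genes. The fit was tested on simulated data. P-values set the difference between groups against the spread between separate animals, moderated by that of all genes. The labels give no array batch. Shared animal numbers in both groups did not pair the animals.

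The members and gene lists were chosen with earlier results of these data known, and lists are given by counts and medians only. The rule named all members, Slc16a3, the called, non-overlapping and 4 smallest-p genes of the wider family, called neighbours and the genes on either side of Psca, up to 3 genes with the smallest p in each other list, and the 8 genes most like Psca and Ly6e by Pearson's r among genes spanning at least 1 log2 unit and above background in a group. Foxa2, Upk1a, Gkn2, Slurp2, Ly6c2, Plaur, Ly6g6d, Chrna9, Chrnb1, Gpihbp1, Pecam1, Cdh5, Vwf, Esam, Alpl, Col1a1, Jrk and 9030619P08Rik were named after their values were seen. Alternatives were quantile normalization, median centring, a filter on dim genes, averaged features, values raised to background, an intensity trend with a robust prior, a replicate block, each animal left out, and, after seeing the data, WT 1 and WT 2 left out.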

Additional observations from a re-analysis of the deposited data

Results flagged for a closer look

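Within the 4 WT animals, 55 named genes were checked for 1 animal standing apart from the other 3, and about 1 in 20 such groups stands out by chance. Among the members, Ly6k was lowest in WT 3 at 4.78 against 5.17 to 5.20 in the others, all of it at background, and Ly6c1 was highest in WT 2 at 12.79 against 12.09 to 12.15. WT 2 also had the highest mean of neutrophil and monocyte markers, 9.86, and the part of those cells in its Ly6c1 value was not tested. Among the other genes, Rtp4 was highest in WT 1 at 8.81 against 8.16 to 8.26, Ttc39c was highest in WT 4 at 7.45 against 6.99 to 7.05, and Atp6ap1l was lowest in WT 3 at 5.78 against 6.00 to 6.02.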

How the results depend on the processing

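The members without Psca held 1 call (Lynx1) and the chromosome 15 neighbours held the same 1, and both counts were 0 under quantile normalization, with values raised to background, with the replicate block, without WT 1 and WT 2, and in each fit that left out 1 animal (0 to 0). The further family genes held 1 call, 2 under quantile normalization and with dim genes left out, 0 with raised values and with the replicate block, and 0 to 1 with 1 animal left out. The fixed lists held 0 calls at an adjusted p, and 0 to 1 with 1 animal left out (Ibsp, without MCT4KO 2). Over all genes there were 115 calls, 79 under quantile normalization of which 73 were among the 115, 26 with raised values, 6 with the replicate block, 16 without WT 1 and WT 2, and 15 to 64 with 1 animal left out (61, 40, 18 and 25 without WT 1 to 4, and 35, 64 and 15 without MCT4KO 1 to 3). Dropping animals leaves fewer samples, and the block both drops WT 4 and spends degrees of freedom; for the other alternatives the cause was not tested. The replicate block used animal numbers that are only shared labels, since deviations of same-numbered animals correlated at -0.13, 0.016 and 0.050, and it moved Lynx1 to -1.04 (limma adjusted p = 0.132), Cd59a to 2.07 (limma adjusted p = 0.055) and Myo7a to -0.0056. Psca kept a change of 3.57 with values raised to background and of 4.00 to 5.87 with 1 animal left out. Changes that turned sign were all uncalled. Ly6d went to -0.015 under quantile normalization, -0.0020 with raised values and -0.017 without WT 1 and WT 2. With raised values Ly6k, Ly6h, Lypd5, Chrna4, Tff1, Emcn and 4933427E11Rik, all at background, stood at -0.0079. Without WT 1 and WT 2, Ly6e was at 0.33, Gda at 0.099, Clec2m at 0.025 and Nxpe2 at 0.031. With 1 animal left out, Slurp1 ran from -0.30 to 0.49, Ly6d from -0.084 to 0.14, Ly6c1 from -0.12 to 0.22, Eva1b from -0.11 to 0.23, Myo7a from -0.17 to 0.24, Clec2m from -0.41 to 0.11 and 4933427E11Rik from -0.046 to 0.46.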
